A study of Ovis aries with 6 samples.

Results

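Mitochondrial ribosomal protein genes are the nuclear genes for the protein subunits of the ribosome that works inside mitochondria. They were taken as the loci that carry a gene name beginning with MRPL or MRPS and a number and that are annotated as protein-coding. A gene found at several such loci was represented by the locus with the highest mean count. The rule gave 65 genes, out of 34119 loci in the deposited table. They hold 62 of the 75 MRPL and MRPS symbols in the RefSeq gene list for sheep, and MRPS16, MRPS17 and MRPS36, which do not stand in that list under these symbols. All 65 passed the filter on low values, a mean of at least 1 FPKM (fragments scaled by locus length and library size) over the 6 libraries, as did 14702 named loci in all. No expression value other than the mean count of competing loci entered the choice.

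The libraries came from granulosa cells, the somatic cells that surround the oocyte in an ovarian follicle, of sheep. There were 3 libraries from atretic follicles, which are follicles in degeneration, and 3 from healthy follicles. The labels call the 3 libraries of a group independent biological replicates and name no animals, breed, follicle size or treatment. The p-values therefore measure the spread between these libraries. The study set the RNA of granulosa cells in degenerating follicles against that in healthy follicles.

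The mitochondrial genome encodes a small number of hydrophobic subunits of the respiratory chain, and the mitochondrial ribosome makes these proteins at the inner membrane. Its RNA comes from the mitochondrial genome, whereas its proteins are encoded in the nucleus, made in the cytosol and imported. Some of the proteins have homologues in bacterial ribosomes, and others occur in mitochondria alone. In humans, inherited defects of several of these genes, among them MRPS22 and MRPL50, are known causes of ovarian insufficiency.

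Total counts were between 87455037 and 91597388 per library, so that depth was nearly even. Healthy replicate 3 stood apart: the biological coefficient of variation between it and the other healthy libraries was 0.447 and 0.45, against 0.137 to 0.18 for the other pairs within a group. The granulosa markers FSHR, FOXL2, INHBA and INHBB were present in all libraries on loci of their own, AMH and INHA share loci with other genes, and CYP19A1 was not analysed here under that name. The summed level of 10 granulosa markers was 9521 to 9751 CPM (counts scaled to library size, TMM-normalised) in the atretic libraries, against 9033, 8963 and 34544 CPM in healthy replicates 1, 2 and 3. Over the 7 of them on a locus of their own it was 7719, 7457 and 8051 CPM in atretic libraries, against 7001, 7008 and 26904 CPM in healthy libraries. Values without healthy replicate 3 are given beside part of the results only. In bulk RNA, fewer cells of a type and less RNA per cell cannot be told apart.

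With all 6 libraries, edgeR called no mitochondrial ribosomal protein gene different between granulosa cells of atretic and healthy follicles. The family's median difference lay close to that of other protein-coding genes. None of the 65 passed the quasi-likelihood test of edgeR at a Benjamini-Hochberg adjusted p of 0.05, where 10 of 14702 loci did (0.068%, of which 0.0476% were higher and 0.0204% lower in atretic). At an unadjusted p under 0.05, 1 member was higher in atretic follicles, MRPS28, and 1 was lower, MRPL53, a share below the 12.8% found over all loci (6.37% higher and 6.41% lower). DESeq2 called MRPS28 alone among the members, against 4.28% of all loci (2.53% higher and 1.75% lower), and limma on log2 FPKM called none. The median log2 fold change of the members was -0.08, against -0.07 over 9542 protein-coding loci and -0.03 over all loci. The middle 50% of members lay between -0.19 and 0.10, and the extremes were MRPL34 at -0.56 and MRPS28 at 0.80. A negative value was found in 42 of 65 members (64.6%), against 60.4% of protein-coding loci. The median standard error of a member was 0.222 on the log2 scale, and adjusted p-values ran between 0.279 and 0.985. With 3 libraries per group, changes larger than these errors also did not pass, among them MRPS28 at 0.80 with a standard error of 0.24. Real changes of the members may thus have been missed.

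**Figure D1:**
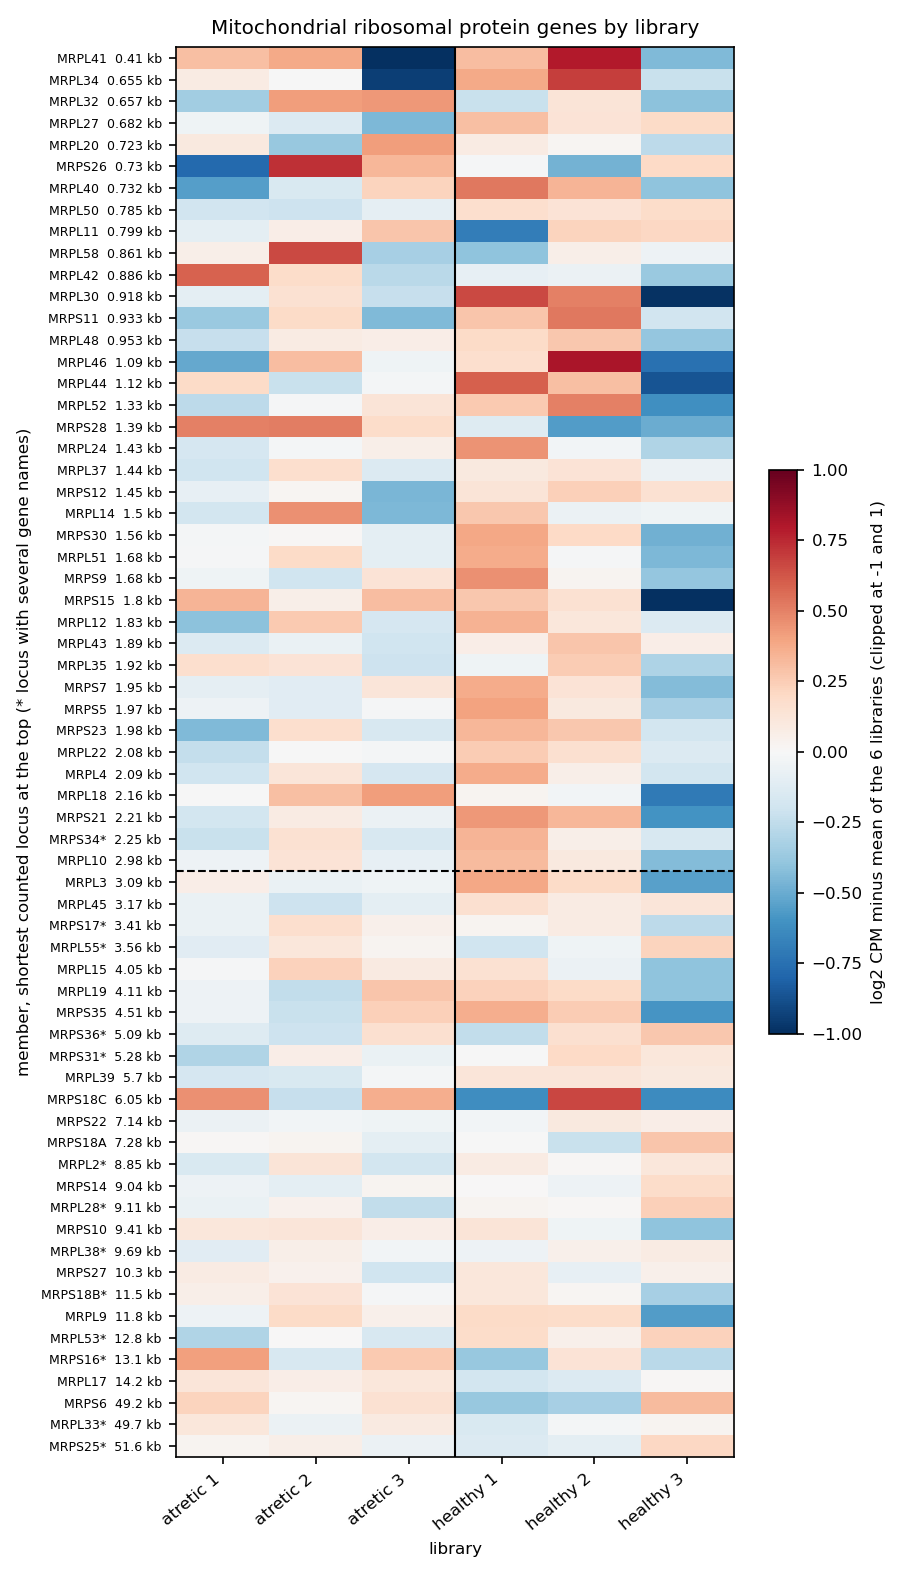
Each row is a member, each column a library, and the colour gives log2 CPM minus the member's mean over the 6 libraries (clipped at -1 and 1). Rows run from the shortest counted locus (0.41 kb) to the longest (51.6 kb), a dashed line marks 3 kb, and an asterisk marks loci with several gene names. Healthy replicates 1 and 2 are mostly red and healthy replicate 3 mostly blue above the line, while rows below it are pale in most libraries.

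The atretic and healthy libraries did not overlap in CPM for 10 of the 65 members (15.4%), against 22% of all loci. All 3 atretic libraries lay above all 3 healthy ones for MRPS28 and MRPL17 (3.08% of members, against 8.25% of protein-coding loci and 11.1% of all loci). They lay below for MRPL53, MRPL50, MRPL45, MRPL39, MRPL27, MRPL43, MRPS12 and MRPS22. These were 12.3% of members, against 14.2% of protein-coding loci and 10.8% of all loci. The count depended on the scale. In the deposited FPKM values, which carry no TMM factor, the atretic libraries lay above for the same 2 members, but below for only 2 of the 8, MRPL27 and MRPL50. Over all loci the atretic libraries lay above for 8.67% and below for 10.1% on that scale.

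MRPS28, a small subunit protein related to bacterial ribosomal protein S1, had the smallest p of the family. Its locus lies on chromosome 9, 61219644 to 61324625, on the minus strand. It had 2.80, 2.82 and 2.23 CPM in atretic replicates 1, 2 and 3, against 1.80, 1.32 and 1.38 CPM in healthy replicates 1, 2 and 3. Every atretic library was above every healthy one, at a low level with a mean of 166 counts. The log2 fold change was 0.80 with a standard error of 0.24 (edgeR adjusted p = 0.279), and DESeq2 gave an adjusted p of 0.0449. Without healthy replicate 3 the value was 0.74 (edgeR adjusted p = 0.0985).

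Among large subunit genes, the 5 members with the smallest p were lower in atretic libraries. MRPL53 has no bacterial homologue and shares its locus (chromosome 3, 102631711 to 102647852, minus strand) with MOGS and CCDC142, so its own reads cannot be told apart from theirs. That locus had 65, 80.2 and 71.5 CPM in atretic replicates 1, 2 and 3, against 90.5, 82.5 and 93.8 CPM in healthy replicates 1, 2 and 3. The atretic libraries were the lower ones, with atretic replicate 2 close to healthy replicate 2. The log2 fold change was -0.30 (SE 0.12, edgeR adjusted p = 0.378).

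MRPL50, a mitochondrial-specific protein on chromosome 2 (22808137 to 22815524, plus strand), had 6.19, 6.14 and 6.64 CPM in atretic libraries, against 8, 7.79 and 8.06 CPM in healthy libraries. Both groups were tight, at 6.32 ± 0.274 in atretic and 7.95 ± 0.142 CPM in healthy follicles (SD, n = 3 each), and all healthy libraries were higher. The log2 fold change was -0.33 (SE 0.15, edgeR adjusted p = 0.428). MRPL50 was 1 of 4 members for which the groups stayed apart on both scales.

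MRPL45, which ties the mammalian mitochondrial ribosome to the inner membrane, lies on chromosome 11 (24330017 to 24347008, minus strand). Its level was 21.2 ± 1.08 CPM in atretic and 25.1 ± 0.652 CPM in healthy follicles (SD, n = 3 each), a difference of -0.25 on the log2 scale (SE 0.11, edgeR adjusted p = 0.433). On the FPKM scale the groups overlapped, with 5.52, 5.20 and 5.49 FPKM in atretic libraries, against 7.34, 6.90 and 5.51 FPKM in healthy libraries. Healthy replicate 3 was thus apart from the atretic libraries in CPM and next to them in FPKM.

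MRPL39, a protein whose fold resembles part of a threonyl-tRNA synthetase, had 24.4, 24.9 and 27.1 CPM in atretic libraries, against 29.8, 29.9 and 29.6 CPM in healthy libraries (chromosome 1, 139437796 to 139456529, plus strand). The healthy values were almost equal and all above the atretic ones. MRPL27, whose bacterial homologue L27 reaches the peptidyl transferase centre, had 3.56, 3.32 and 2.66 CPM in atretic libraries, against 4.49, 4.02 and 4.18 CPM in healthy libraries (chromosome 11, 27018442 to 27023511, minus strand). Here too the groups stayed apart, and atretic replicate 3 was the lowest. The log2 fold changes were -0.23 (SE 0.11) for MRPL39 and -0.41 (SE 0.20) for MRPL27, and neither passed the test.

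MRPL43, a mitochondrial-specific protein, had 8.47, 8.89 and 8.14 CPM in atretic libraries, against 9.81, 11.3 and 9.83 CPM in healthy libraries (chromosome 22, 24439425 to 24441977, minus strand). MRPL34 had 1.60, 1.51 and 0.778 CPM in atretic libraries, against 1.98, 2.46 and 1.30 CPM in healthy libraries (chromosome 5, 5968145 to 5969015, minus strand). MRPL43 was lower in every atretic library, whereas for MRPL34 the groups overlapped through healthy replicate 3. MRPL34 had the most negative log2 fold change of the family and a large error, -0.56 with a standard error of 0.38, from a mean of 133 counts.

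Of the 41 large subunit members, 13 had a positive log2 fold change, among them MRPL17 and MRPL18. MRPL17, homologous to a protein near the exit of the bacterial peptide tunnel, had 69.3, 66.8 and 68.7 CPM in atretic libraries, against 56.2, 57.9 and 64.2 CPM in healthy libraries (chromosome 15, 49570083 to 49584270, plus strand). All atretic libraries were above all healthy ones, and healthy replicate 3 was the closest to them. The log2 fold change was 0.20 (SE 0.10, edgeR adjusted p = 0.474), and without healthy replicate 3 it was 0.26 (edgeR adjusted p = 0.062). MRPL18, whose bacterial homologue binds 5S ribosomal RNA, had 7.14, 8.85 and 9.60 CPM in atretic libraries, against 7.31, 7 and 4.37 CPM in healthy libraries (chromosome 8, 90782507 to 90788583, plus strand). The groups overlapped and healthy replicate 3 was the lowest, and the log2 fold change of 0.45 (SE 0.25) was 0.25 without that library.

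In the small subunit, MRPS12, a protein of the decoding centre, had 6.11, 6.56 and 4.69 CPM in atretic libraries, against 7.11, 7.67 and 7.16 CPM in healthy libraries (chromosome 14, 51546048 to 51548514, plus strand). Its locus overlaps that of SARS2, the mitochondrial seryl-tRNA synthetase. MRPS12 was lower in every atretic library, while SARS2 overlapped between the groups, with 24.5, 28 and 21 CPM in atretic and 20.9, 21.2 and 28.4 CPM in healthy libraries. MRPS16 shares a locus with the chaperone gene DNAJC9 (chromosome 25, 30324968 to 30353735, minus strand), and the locus had 39.2, 26.3 and 35.3 CPM in atretic libraries, against 22.6, 32.5 and 24.3 CPM in healthy libraries. Atretic replicate 2 and healthy replicate 2 crossed over between the groups there. MRPS22, a mitochondrial-specific protein, averaged 39.4 ± 0.289 CPM in atretic and 41.9 ± 1.89 CPM in healthy follicles (SD, n = 3 each). Its atretic libraries were the lower ones, though the log2 fold change was only -0.09 (SE 0.09). The 12 members with the smallest p, which exclude MRPS22, had edgeR adjusted p-values between 0.279 and 0.6.

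**Figure D2:**
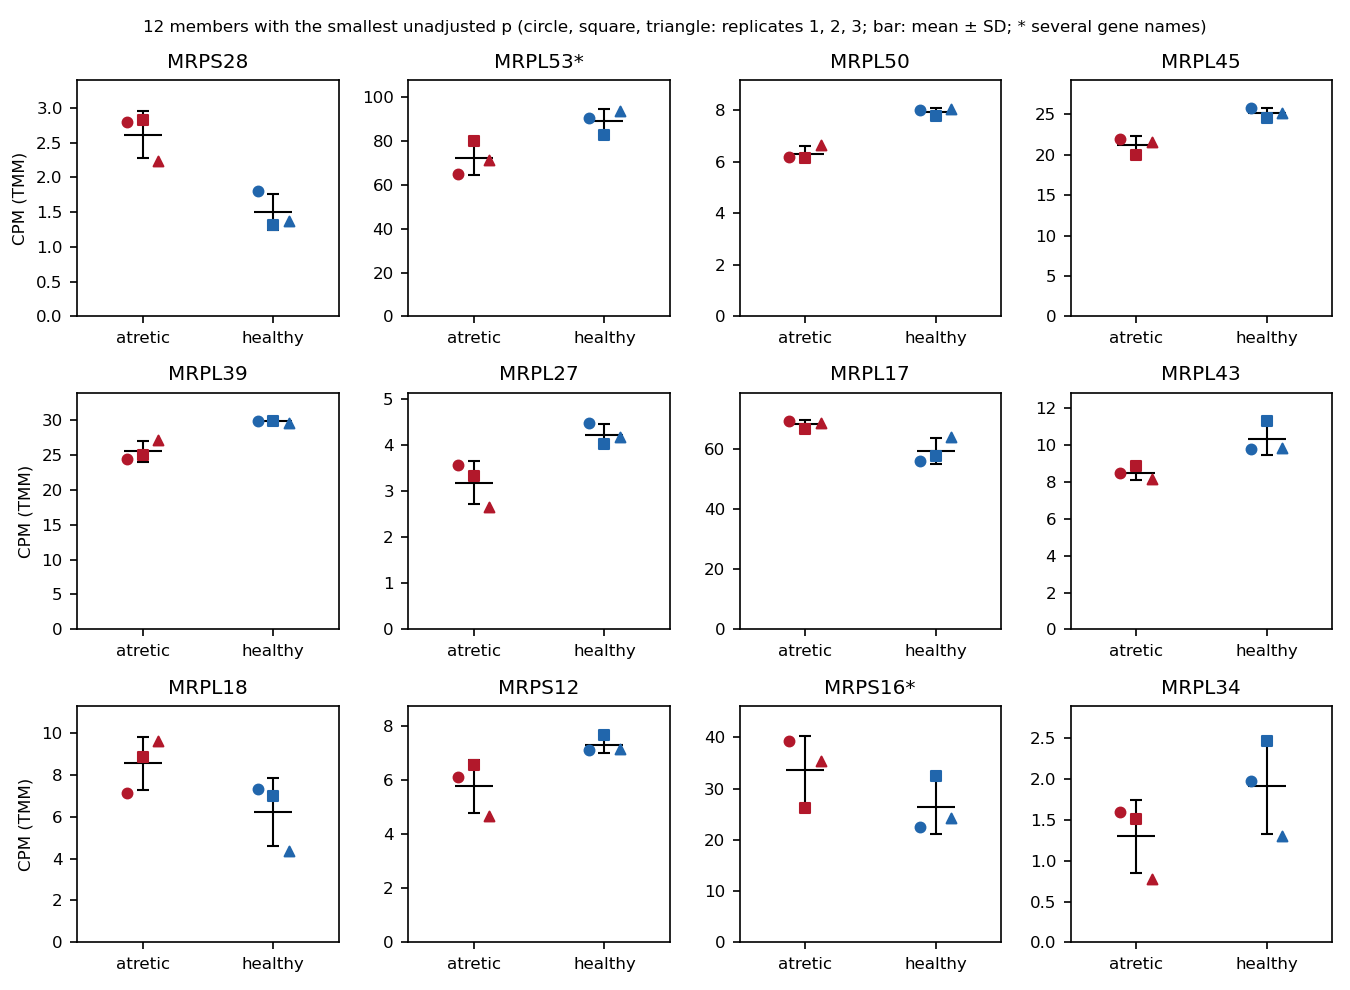
Each panel shows CPM (TMM-normalised, axis from 0) of a member in 3 atretic (red, left) and 3 healthy libraries (blue, right), with mean ± SD, for the 12 members with the smallest unadjusted p. MRPS28 and MRPL17 lie higher in all atretic libraries and MRPL53, MRPL50, MRPL45, MRPL39, MRPL27, MRPL43 and MRPS12 lower, while MRPL18, MRPS16 and MRPL34 overlap.

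MRPS6 held more reads than any other member and was the only member whose call turned on a single library. Its locus on chromosome 1 (129458202 to 129528320, minus strand) had a mean of 45475 counts over a counted length of 49.2 kb. It had 652, 567 and 620 CPM in atretic libraries, against 431, 444 and 700 CPM in healthy libraries. Healthy replicates 1 and 2 were well below the atretic libraries and healthy replicate 3 was above them all. The log2 fold change was 0.22 (SE 0.22, edgeR adjusted p = 0.728). Without healthy replicate 3, MRPS6 rose in atretic follicles, by 0.48 on the log2 scale (edgeR adjusted p = 0.00235). It was then the only member past the test, where 18.8% of all loci passed (10.9% higher and 7.91% lower in atretic).

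The RefSeq gene list places SLC5A3, the sodium and myo-inositol cotransporter gene, inside the interval of MRPS6. No locus of the deposited table carries the name SLC5A3, so its reads and those of MRPS6 cannot be told apart, and SLC5A3 was not analysed here. MRPS6 alone took 30.5, 26.7 and 29.7% of all member counts in atretic libraries, against 21.9, 22.4 and 31.5% in healthy libraries.

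MRPS25 is a similar case. It shares a locus of 51.6 kb with NR2C2, a nuclear receptor gene (chromosome 19, 59133601 to 59261682, minus strand), and only 1 annotated transcript stands behind both names. The locus had 338, 346 and 316 CPM in atretic libraries, against 301, 309 and 381 CPM in healthy libraries. Healthy replicate 3 was again the highest, and the log2 fold change was 0.01 (SE 0.14), or 0.13 without that library. Another protein-coding locus named MRPS25, on the plus strand, had a mean of 0.383 FPKM and was under the filter.

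The summed level of the family depended on these loci. All 65 members summed to 2138, 2123 and 2088 CPM in atretic libraries, against 1972, 1982 and 2220 CPM in healthy libraries. Leaving out MRPS6 and MRPS25, the sums were 1148, 1210 and 1152 CPM in atretic libraries, against 1240, 1229 and 1138 CPM in healthy libraries. With both loci the atretic sums were above healthy replicates 1 and 2 and below healthy replicate 3. Without them the order turned round, and in neither case did the groups separate.

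**Figure D3:**
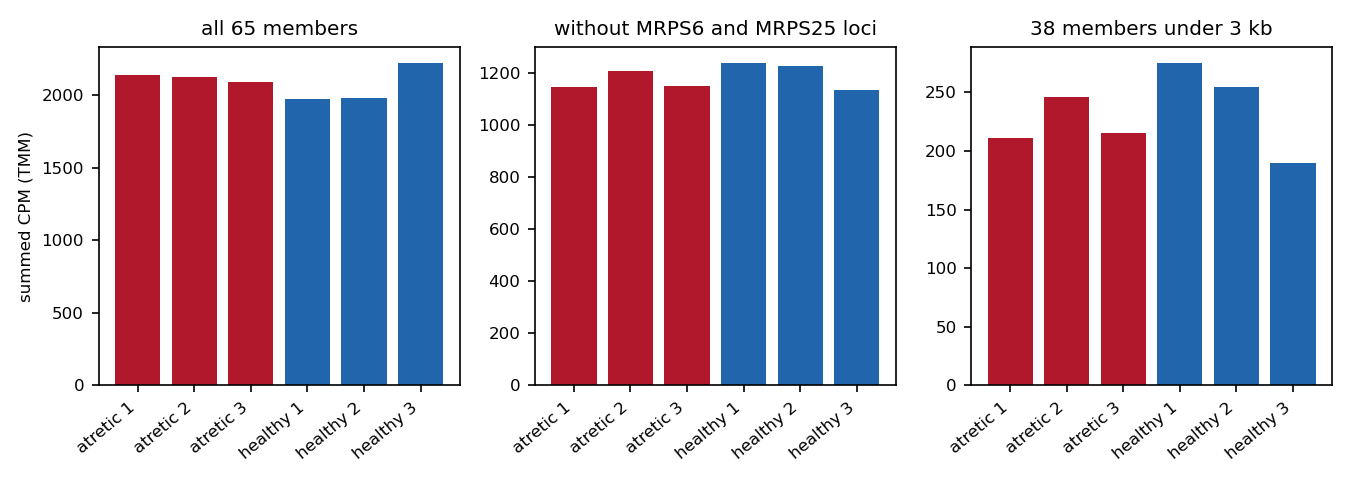
Bars give summed CPM per library (TMM-normalised, axis from 0) for atretic replicates 1 to 3 (red) and healthy replicates 1 to 3 (blue), over all 65 members, over the members without the MRPS6 and MRPS25 loci, and over the 38 members under 3 kb. Healthy replicate 3 is the highest bar in the first panel (2220) and the lowest in the other panels (1138 and 190).

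Levels between members were compared in FPKM, which is per length. Member means lay between 1.08 and 14.6 FPKM with a median of 2.99, against a median of 3.39 FPKM over protein-coding loci. The highest was the locus shared by MRPL2, a core protein next to the peptidyl transferase centre, and CUL7, a cullin of a ubiquitin ligase, at 14.6 FPKM. MRPL37 followed with 10.3 FPKM and the MRPS6 locus with 9.35 FPKM. The lowest were MRPS26 with 1.08 FPKM, MRPS14 with 1.19 FPKM and MRPL11, whose bacterial homologue sits at the base of the factor-binding stalk, with 1.19 FPKM. The subunit genes thus spanned more than a 10-fold range in RNA per length, including loci shared with other genes. On loci with 1 gene name, the range was 1.08 to 10.3 FPKM. These ranks depend on the counted length of the assembled locus. MRPS14 had a mean of 1062 counts over 9.04 kb, against 78.5 counts over 0.73 kb for MRPS26.

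The highest and lowest members did not differ between the groups beyond their spread. MRPL37 had 15.5, 20.1 and 16.2 CPM in atretic libraries, against 19.2, 19.7 and 17.2 CPM in healthy libraries. The MRPL2 locus had 142, 171 and 138 CPM in atretic libraries, against 165, 158 and 169 CPM in healthy libraries. Both overlapped, with atretic replicate 2 the highest of all 6 libraries. MRPS26 had 0.523, 1.53 and 1.15 CPM in atretic libraries, against 0.911, 0.656 and 1.05 CPM in healthy libraries, from a mean of 78.5 counts. MRPL11 had 1.06, 1.20 and 1.39 CPM in atretic libraries, against 0.70, 1.34 and 1.33 CPM in healthy libraries. These counts were low and the libraries of the groups were interleaved. MRPS14 had 12.6, 12.2 and 13.4 CPM in atretic libraries, against 13.1, 12.6 and 14.8 CPM in healthy libraries, also with overlap.

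MRPS18A, MRPS18B and MRPS18C are paralogs related to bacterial S18, and of the 3, MRPS18A lies in the large subunit of the mammalian mitochondrial ribosome. MRPS18A had 17.9, 18.2 and 16.5 CPM in atretic libraries, against 17.7, 15.2 and 21.6 CPM in healthy libraries. MRPS18B, on a locus shared with C6orf136 and ATAT1, had 66.3, 70.3 and 63.3 CPM in atretic libraries, against 68.6, 64.7 and 50.6 CPM in healthy libraries. MRPS18C had 16.6, 10.2 and 15.5 CPM in atretic libraries, against 7.81, 19.1 and 7.77 CPM in healthy libraries. All 3 overlapped between the groups, and MRPS18C varied most, with healthy replicate 2 above every other library. Their log2 fold changes were -0.05 (SE 0.16), 0.12 (SE 0.14) and 0.28 (SE 0.41) in the order A, B, C, and 0.09, -0.003 and 0.06 without healthy replicate 3.

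By position in the ribosome, 41 members belong to the large and 23 to the small subunit. MRPS36 belongs to neither, since the protein is now known as KGD4, a part of the oxoglutarate dehydrogenase complex, and its locus is shared with CENPH. The median log2 fold change was -0.11 over large subunit members, of which 28 were negative, and -0.06 over small subunit members, of which 13 were negative. Over 37 members with a bacterial homologue the median was -0.02 with 20 negative, and over 27 mitochondrial-specific members it was -0.12 with 21 negative. MRPS18A and MRPS18B were counted as mitochondrial-specific although they are related to bacterial S18. Leaving out healthy replicate 3, the medians were -0.21 for the large and -0.04 for the small subunit, -0.11 with a bacterial homologue and -0.25 for mitochondrial-specific members. Among members with a counted length under 3 kb these differences were smaller. There the medians were -0.12 for the large and -0.14 for the small subunit, and -0.15 for mitochondrial-specific members, against -0.11 for members with a bacterial homologue.

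The counted length is the length that count and FPKM of a locus imply together, and it varied widely among members. Lengths ran between 0.41 and 51.6 kb with a median of 2.08 kb, against 5.38 kb over protein-coding loci. The median was 1.81 kb on the 52 loci with 1 gene name and 9.11 kb on the 13 loci with several. Divided at 3 kb, a limit chosen after the values were seen, 38 members were shorter and 27 were as long or longer. MRPL10, with 2.98 kb, and MRPL3, with 3.09 kb, were the members nearest to the limit.

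The fold changes of short members were centred a little below 0, as were those of short protein-coding loci in general. The median log2 fold change of the 38 short members was -0.13, and that of the 2819 protein-coding loci under 3 kb was also -0.13. The 27 longer members had a median of -0.05, and so did the protein-coding loci of 3 kb or more. Without healthy replicate 3, short members had a median of -0.29, against -0.21 for short protein-coding loci, and 76.3% of them were negative, against 75.5%. Longer members then had a median of -0.02, against -0.05. Short members had a median of 487 mean counts and longer ones 2246, so the longer members were measured with smaller errors (median standard errors of 0.249 and 0.154 on the log2 scale).

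**Figure D4:**
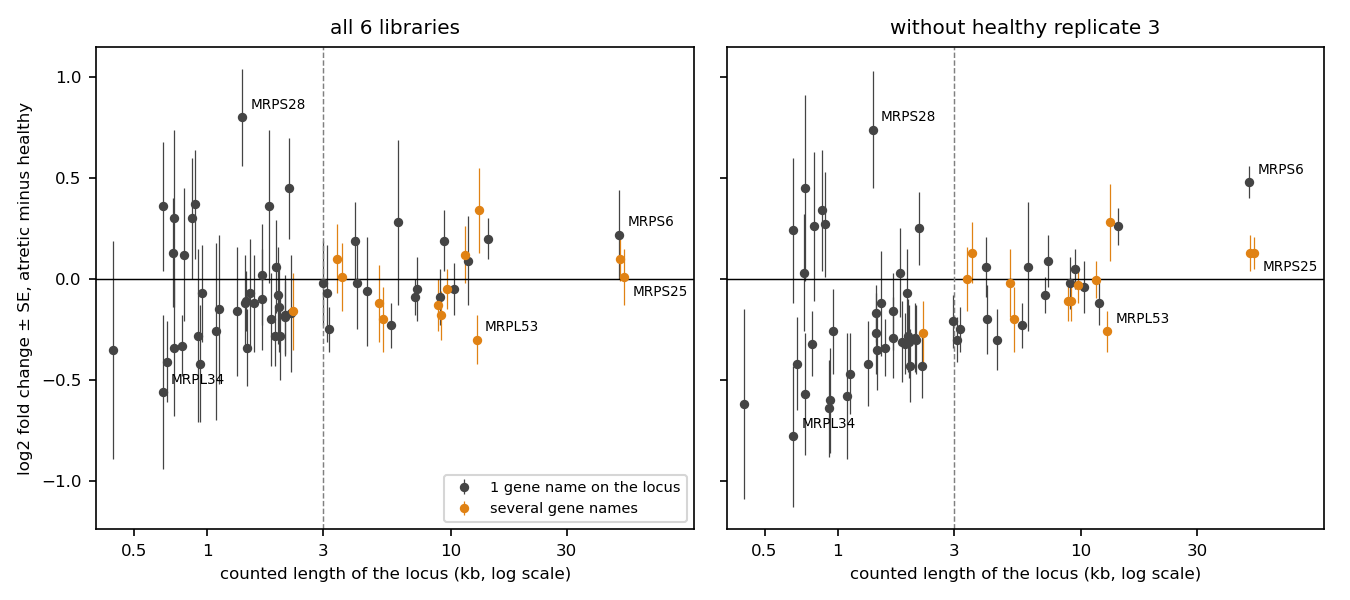
Each point is a member at its counted length (kb, log axis) and its log2 fold change, atretic minus healthy, with its standard error, on loci with 1 gene name (grey) or several (orange). With all 6 libraries (left) points lie on both sides of 0, with medians of -0.13 under 3 kb and -0.05 above it. Without healthy replicate 3 (right) most members under 3 kb are below 0 (median -0.29) and MRPS6 stands above 0 with a value of 0.48.

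Short members differed most from library to library in the healthy group. Relative to each member's mean over the 6 libraries, the median log2 CPM of short members was -0.10, 0.10 and -0.09 in atretic replicates 1, 2 and 3, against 0.28, 0.14 and -0.32 in healthy replicates 1, 2 and 3. Healthy replicates 1 and 2 were thus the highest libraries and healthy replicate 3 the lowest. Over all protein-coding loci under 3 kb the order was similar and the span smaller, with -0.11, 0.05 and -0.10 in atretic, against 0.19, 0.14 and -0.14 in healthy libraries. Longer members moved little, between -0.05 and 0.07 in every library. Of the 65 members, 27 had their lowest value in healthy replicate 3 (41.5%, against 38.2% of protein-coding loci) and 22 had their highest in healthy replicate 1 (33.8%, against 22.5%). Short members of this kind include MRPL30, with 2.24, 2.66 and 2.03 CPM in atretic libraries, against 3.79, 3.40 and 1.20 CPM in healthy libraries. MRPL44, a protein with an RNase III-like fold, had 6.35, 4.74 and 5.48 CPM in atretic libraries, against 8.42, 6.85 and 3.06 CPM in healthy libraries. In both, the atretic libraries lay between healthy replicates 1 and 2 and healthy replicate 3. The log2 fold changes of MRPL30 and MRPL44 were -0.28 and -0.15, and -0.64 and -0.47 without healthy replicate 3. MRPL30 and MRPL44 were chosen after their values were seen.

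Without healthy replicate 3, 46 of 65 members were negative (70.8%, against 64.2% of protein-coding loci), with a median of -0.17, against -0.09 over protein-coding loci. At an unadjusted p under 0.05, 9 members were lower and 3 higher in atretic, 12 in all, a share below the 33.2% of all loci. Apart from MRPS6, the edgeR adjusted p-values of the members began at 0.062.

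The macrophage markers moved with the groups. The 14 macrophage markers found all had a negative log2 fold change, as had 60.4% of protein-coding loci, and none was at 0. In edgeR, 1 of the 14 passed as lower with all 6 libraries (0.0204% of all loci), and 12 without healthy replicate 3 (7.91%). For 7 (50%) all atretic libraries lay below all healthy ones in CPM, against 14.2% of protein-coding loci. The 14 markers summed to 446 to 502 CPM in atretic libraries, against 928, 884 and 544 CPM in healthy replicates 1, 2 and 3. The locus of CD68, shared with EIF4A1 and POLR2A, held 275, 306 and 270 CPM of this in atretic libraries, against 335, 312 and 318 CPM in healthy libraries. The 11 markers on loci of their own summed to 157, 180 and 166 CPM in atretic libraries, against 535, 513 and 208 CPM in healthy libraries. On either sum, healthy replicate 3 was nearer to the atretic libraries than the other healthy ones were. Stroma markers (8 of 8 found) summed to 74.4 to 79.5 CPM in atretic libraries, against 161, 161 and 57.6 CPM in healthy libraries. Endothelium markers (7 of 7 found, with CDH5 and EMCN at 0 in at least 1 library) summed to 20.3 to 21.8 CPM in atretic libraries, against 41.4, 50.7 and 24.6 CPM in healthy libraries. For each of these lists healthy replicates 1 and 2 were the highest, as they were for the short members. The part that other cells had in the members' levels was not tested.

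Theca markers (7 of 7 found, with CYP17A1 at 0 in at least 1 library) summed to 780 to 875 CPM in atretic libraries, against 776, 750 and 1862 CPM in healthy libraries, and the 4 on loci of their own to 111, 115 and 114 CPM in atretic, against 83.4, 72.2 and 336 CPM in healthy libraries. Blood markers (4 of 9 found) summed to 1.91 to 2.82 CPM in atretic libraries, against 7.47, 8.60 and 1.37 CPM in healthy libraries. Epithelium and oocyte markers (7 of 10 found, with KRT7, KRT19 and BMP15 at 0 in at least 1 library) summed to 4.32 to 5.05 CPM in atretic libraries, against 8.53, 7.67 and 1.23 CPM in healthy libraries. Healthy replicate 3 was the highest for theca and the lowest for blood and for epithelium and oocyte.

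Apart from MRPL53, MRPS16, MRPL2, MRPS18B, MRPS25 and MRPS36, the members on loci with several gene names were MRPL28 (with PGAP6), MRPS31 (with SNORA71), MRPL33 (with BABAM2), MRPS34 (with NME3), MRPS17 (with ZNF713), MRPL38 (with TRIM65) and MRPL55 (with C1orf35). Reads of the genes in such a locus cannot be told apart. The 13 loci had a median log2 fold change of -0.05, against -0.09 for the 52 members with a locus of their own, and -0.02 against -0.24 without healthy replicate 3. They took 43.4, 45.9 and 43.3% of the member counts in atretic libraries, against 46.4, 47 and 45.9% in healthy libraries. Another named locus overlaps those of 22 members, and since the sources used here do not say whether counting used strand, their reads may include those of the overlapping locus.

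Of the 75 RefSeq symbols, 13 had no locus that met the rule. MRPL47 and MRPL54 were found only as loci without an annotated transcript, with log2 fold changes of 0.004 (SE 0.10) and -0.01 (SE 0.19). MRPL1, MRPL13, MRPL16, MRPL36 and MRPL57 were reached through the NCBI gene number in the locus description. MRPL36, homologous to a small zinc-binding protein of the bacterial large subunit, had 2.29, 2.78 and 2.26 CPM in atretic libraries, against 3.89, 4.14 and 3.55 CPM in healthy libraries. All its atretic libraries were below all healthy ones, and the difference of -0.66 on the log2 scale (SE 0.20) did not pass edgeR's test (adjusted p = 0.282). MRPL1, MRPL13 and MRPL16 had values of -0.14, 0.03 and -0.23 (-0.31, -0.27 and -0.15 without healthy replicate 3), and both loci of MRPL57 were under the filter. MRPL36 was singled out after its values were seen. MRPL21, MRPL23, MRPL49, MRPS2, MRPS24 and MRPS33 were not analysed here.

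Mitochondrial ribosomal proteins whose symbols do not begin with MRP gave a similar picture. DAP3, the GTP-binding protein of the small subunit, had 17.7, 15.2 and 18.2 CPM in atretic libraries, against 16.1, 15.8 and 11.9 CPM in healthy libraries. PTCD3, a pentatricopeptide repeat protein on a locus shared with SNORD94, had 35.1, 35.4 and 34.6 CPM in atretic libraries, against 41.5, 43.4 and 23.5 CPM in healthy libraries. DAP3 and PTCD3 overlapped between the groups and were lowest in healthy replicate 3. Their log2 fold changes were 0.22 and -0.04, and 0.09 and -0.28 without it. CHCHD1 and AURKAIP1, both small subunit proteins, had log2 fold changes of -0.22 (SE 0.31) and -0.17 (SE 0.29), also with overlap, and GADD45GIP1, a large subunit protein, was under the filter. None of the 4 tested genes passed.

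Many members have a close neighbour on the opposite strand. For 17 of 65 (26.2%), a divergent named protein-coding locus began within 1000 bases of the member's start, as assembled, against 9.7% of protein-coding loci tested. MRPL46 and MRPS11 form such a pair with each other, 126 bases apart on chromosome 18 (16719516 to 16731426, minus strand, and 16731553 to 16742398, plus strand). MRPL46 had 1.62, 2.87 and 2.25 CPM in atretic libraries, against 2.60, 4.11 and 1.37 CPM in healthy libraries. MRPS11 had 2.68, 3.98 and 2.56 CPM in atretic libraries, against 4.24, 5.04 and 3.04 CPM in healthy libraries. Both were highest in healthy replicate 2, and in each the groups overlapped. MRPL43 lies 85 bases from TWNK, the mitochondrial DNA helicase gene, and MRPL27 lies 8 bases from EME1. TWNK had 17.6, 22.7 and 18.7 CPM in atretic libraries, against 20.4, 19 and 8.88 CPM in healthy libraries, and unlike MRPL43 it overlapped between the groups.

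With all 6 libraries, the median differences of genes that act with the mitochondrial ribosome also lay near 0. None of 14 tested translation factors, 26 assembly factors, 20 mitochondrial aminoacyl-tRNA synthetases, 17 genes of mitochondrial DNA transcription and replication, 8 regulators of mitochondrial biogenesis and 23 import genes passed edgeR's test. Their median log2 fold changes were -0.02, -0.0008, -0.02, -0.02, -0.005 and -0.05 in that order. With healthy replicate 3 left out, the medians were -0.13, -0.11, -0.15, -0.10, 0.01 and -0.10. In that fit, where 10.9% of all loci passed as higher and 7.91% as lower, 4 of these genes passed: MYC, the import gene TOMM5 and the locus of POLG2 shared with DDX5 as higher, and FASTKD1, an RNA-binding protein of mitochondria, as lower. At an unadjusted p under 0.05, 2 assembly genes were higher in atretic libraries and 1 was lower, and the numbers higher and lower were 0 and 0 for translation factors and for synthetases, 1 and 0 for transcription and replication, 1 and 0 for regulators and 1 and 0 for import.

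Among assembly factors, RCC1L had 29.2, 26.6 and 24.9 CPM in atretic libraries, against 22.1, 21.2 and 21.3 CPM in healthy libraries, a difference of 0.32 on the log2 scale (SE 0.12, edgeR adjusted p = 0.333). NGRN, which works with it on the large ribosomal RNA, had 7.58, 7.34 and 7.09 CPM in atretic libraries, against 5.66, 5.68 and 3.46 CPM in healthy libraries (0.57, SE 0.24, and 0.37 without healthy replicate 3). Both were higher in all atretic libraries. SPG7, a subunit of the protease that processes MRPL32, had 11.9, 12.6 and 11 CPM in atretic libraries, against 14.6, 15.1 and 17.1 CPM in healthy libraries, a difference of -0.40 on the log2 scale (SE 0.14, edgeR adjusted p = 0.319). SPG7 was lower in all atretic libraries. MRPL32 itself had 0.929, 1.61 and 1.62 CPM in atretic libraries, against 1.02, 1.31 and 0.894 CPM in healthy libraries, with overlap.

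Among the regulators, MYC, a transcription factor that also drives ribosome synthesis, had 74.7, 83.7 and 78.9 CPM in atretic libraries, against 62.5, 51.7 and 24.4 CPM in healthy libraries (log2 fold change 0.78, SE 0.32, edgeR adjusted p = 0.389). The value without healthy replicate 3 was 0.47 and passed (edgeR adjusted p = 0.0114). The 3 atretic libraries were above all healthy ones, and healthy replicate 3 was the lowest. NRF1, the nuclear respiratory factor known to control many mitochondrial genes, was at 0.04 (SE 0.11) and GABPA, another such factor, at -0.11 (SE 0.11). TFAM, the mitochondrial DNA packaging factor, was at -0.02 (SE 0.19). NRF1, GABPA and TFAM were named for their role.

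The nuclear-encoded respiratory chain subunits, which are assembled with the products of the mitochondrial ribosome, and the cytosolic ribosomal proteins were the gene groups most like the family. Over 53 respiratory chain genes the median log2 fold change was -0.22, with 41 negative. At an unadjusted p under 0.05 in edgeR, 6 of the 53 were lower, all among the 37 under 3 kb. The same held for 6.41% of all loci, 824 of 9542 protein-coding loci and 315 of the 2819 under 3 kb. For 13 of the 53 all atretic libraries lay below all healthy ones in CPM (24.5%). The share was 12.3% of mitochondrial ribosomal protein genes, 14.2% of protein-coding loci and 10.8% of all loci. Respiratory chain genes were not compared in this way on the FPKM scale. No respiratory chain gene passed with all 6 libraries, and 11 of 53 fell without healthy replicate 3, 9 of them under 3 kb. In that fit 7.91% of all loci, 1039 of 9542 protein-coding loci and 393 of the 2819 under 3 kb fell. No mitochondrial ribosomal protein gene fell there. The 49 cytosolic ribosomal protein genes had a median of 0.13 with 43 positive, and of -0.14 without healthy replicate 3, and no gene passed with all 6 libraries, while RPS20 and RPS25 fell without that library. The difference between these gene groups was not tested.

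The groups also differed in how far healthy replicate 3 moved them. Relative to the mean over the 6 libraries, the median log2 CPM of cytosolic ribosomal protein genes was 0.03, 0.25 and -0.01 in atretic libraries, against 0.28, 0.19 and -0.77 in healthy libraries. Respiratory chain genes had -0.18, 0.05 and -0.14 in atretic libraries, against 0.18, 0.11 and 0.01 in healthy libraries. All mitochondrial ribosomal protein genes together had -0.06, 0.06 and -0.03 in atretic libraries, against 0.15, 0.11 and -0.22 in healthy libraries. In healthy replicate 3 the median of all members thus lay between the cytosolic ribosomal proteins, far down, and the respiratory chain, near its mean. Members of 3 kb or more were at 0.07 there, above the respiratory chain, and members under 3 kb at -0.32. Under 3 kb, cytosolic ribosomal protein genes were at -0.83 and respiratory chain genes at -0.03 in that library.

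**Figure D5:**
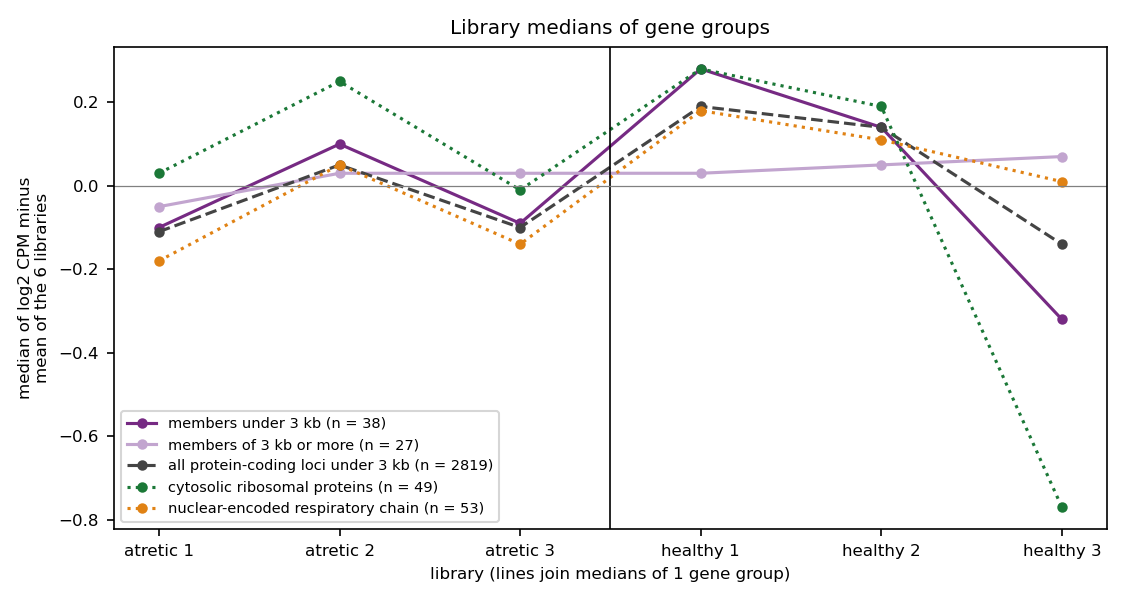
Points give, for each library, the median over a gene group of log2 CPM minus the gene's mean over the 6 libraries, for atretic replicates 1 to 3 (left) and healthy replicates 1 to 3 (right). Healthy replicate 3 is at -0.77 for cytosolic ribosomal proteins, -0.32 for short mitochondrial ribosomal proteins, 0.01 for the respiratory chain and 0.07 for long mitochondrial ribosomal proteins.

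The RNA that the mitochondrial ribosome translates comes from the mitochondrial chromosome, where the table holds 3 loci without gene names. These took 1.15, 1.18 and 1.27% of all counts in atretic libraries, against 0.827, 0.758 and 0.413% in healthy libraries. All atretic libraries were above all healthy ones, and the summed levels of the mitochondrial ribosomal protein genes showed no such separation. These loci were not part of the test, and an exact permutation test of 3 against 3 libraries cannot go below p = 0.1. The RNA of the mitochondrial ribosome itself comes from the same chromosome and may be among the reads of these loci. The libraries were depleted of ribosomal RNA, and the part of such RNA in this difference was not tested.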

How the data were processed

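Per the labels' protocols, granulosa cell RNA was prepared with TRIzol, depleted of ribosomal RNA and reverse transcribed with SuperScript II. The submitters' processing notes name StringTie 2.1.6, HISAT2 2.0.4, SAMtools, FastQC 0.11.9 and cutadapt 1.9. The sources used here do not give their roles, the genome build, the annotation or whether counting used strand. The authors deposited 1 table of read counts and FPKM values per assembled locus, per the file headers, and coordinates are printed as they stand there. Deposited FPKM is the count divided by the length of the locus and by library size.

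Atretic and healthy libraries were recognised by the initials in their titles together with the design text. The 5640 loci without a gene name (11.4, 11.4 and 11.5% of counts in atretic, against 9.6, 9.77 and 8.88% in healthy libraries) stayed out of library sizes and tests. Named loci with a mean FPKM of at least 1 were tested in edgeR 4.0.16 (TMM, quasi-likelihood F test, group as the only term, two-sided, Benjamini-Hochberg at 0.05 over 14702 loci). Fold changes are log2, atretic minus healthy. CPM values are TMM-normalised over named loci. DESeq2 1.42.0 and limma 3.58.1 (log2 of FPKM plus 1 or 0.1) were alternatives (R 4.3.3). Summaries and figures used pandas 2.3.3 and matplotlib 3.10.9 under Python 3.11.15. The fit was run on simulated data with an even and smaller spread, no outlying library and larger changes than those of the members. That check therefore does not cover data such as these. Counted length is count over FPKM divided by 1.095, the median ratio of that quantity to the span of a locus over 2377 loci with more than 500 counts and a ratio within 0.05 of 1.1, taken as loci without introns, so lengths are approximate.

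The members and the 15 gene lists were chosen with earlier results of these data known. Named with values were the 12 members with the smallest p, the 3 highest and 3 lowest by FPKM, the MRPS18 paralogs and up to 3 genes of each other list. Further genes are marked as singled out later or stand for their locus, neighbour or role. RefSeq symbols come from assembly ARS-UI_Ramb_v3.0, used for names and neighbours only.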

Additional observations from a re-analysis of the deposited data

How the results depend on the processing

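The count of members past the test was 0 in either direction, and 0 lower in every alternative. It was 1 higher in DESeq2 (MRPS28, adjusted p = 0.0449) and 0 to 1 higher on leaving out 1 library, the 1 being MRPS6 without healthy replicate 3 (log2 fold change 0.48). Over all loci, 7 were higher and 3 lower. DESeq2 gave 372 higher and 257 lower, and a mean FPKM of at least 5 gave 17 and 1. No filter gave 2 and 0, and protein-coding loci alone gave 18 and 5. With limma there were 7 higher with a pseudocount of 0.1 and 10 with a pseudocount of 1, and 1 lower with either. Leaving out 1 library gave 0 to 1598 higher and 0 to 1163 lower. The median of the members (-0.08) was -0.17 to 0.01 on leaving out 1 library, the positive value being without healthy replicate 1, -0.09 over members on loci with 1 gene name, an alternative chosen after seeing the data, and -0.08 to -0.02 in the other alternatives. With a mean FPKM of at least 5, 11 members were left. Of 279 values of named members over 14 settings, 273 kept their direction and side of the threshold and 2 newly passed (MRPS28 and MRPS6, as above). The 4 that changed sign were MRPS26 (-0.05 without atretic replicate 2, up to 0.62 on leaving out another library), MRPL11 (-0.12 without healthy replicate 1, up to 0.28), MRPS18A (0.09 without healthy replicate 3, down to -0.16) and MRPS18B (-0.003 without healthy replicate 3, up to 0.22). The cause was not tested.

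Deviations from the group mean correlated at -0.137, 0.0584 and 0.000242 between same-numbered libraries, against -0.108 to 0.13 between differently numbered ones. The deviations within a group balance each other by construction, so this check cannot decide whether the numbers pair the libraries. With the replicate number as a replicate block, 0 loci were higher and 0 lower, and the members' median was -0.05. Short loci with few counts limit what can be seen: members under 3 kb had 78.5 to 1650 mean counts.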

Other observations

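Genes often read as a measure of mitochondrial content had values in both directions. Of 12 such genes tested, 7 were negative and 5 positive, and none passed edgeR's test with Benjamini-Hochberg adjustment. At an unadjusted p under 0.05 in edgeR, 5 were lower and 0 higher (6.41 and 6.37% of all loci). For 6 all atretic libraries lay below all healthy ones (50%, against 14.2% of protein-coding loci and 10.8% of all loci). Their median log2 fold change was -0.20. Without healthy replicate 3, VDAC1, VDAC2 and MDH2 fell and CHCHD3 rose (edgeR adjusted p = 0.00785, 0.0283, 0.0131 and 0.0101), where 7.91% of all loci fell and 10.9% rose. VDAC1, a channel of the outer membrane, had 89.7, 94.3 and 96.3 CPM in atretic libraries, against 122, 122 and 118 CPM in healthy libraries. MDH2, the mitochondrial malate dehydrogenase, had 51.9, 59.3 and 51.7 CPM in atretic libraries, against 74.3, 70.3 and 73.1 CPM in healthy libraries. In both genes every atretic library was below every healthy one, with log2 fold changes of -0.37 (SE 0.10) and -0.42 (SE 0.11). VDAC2, a related channel, had 98.8, 92.8 and 86.6 CPM in atretic libraries, against 116, 115 and 129 CPM in healthy libraries. CHCHD3, of the complex that shapes the inner membrane, had 241, 215 and 239 CPM in atretic libraries, against 176, 177 and 285 CPM in healthy libraries. The other 4 positive genes were SLC25A3, PHB2, IMMT and MICOS10, with log2 fold changes of 0.06, 0.03, 0.10 and 0.23. These values were not set against those of the mitochondrial ribosomal protein genes by a test.

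Loci that carry a member's name without an annotated transcript were mostly antisense or flanking. The 7 tested ones, for MRPL19, MRPL22, MRPL38, MRPL39, MRPL45, MRPS25 and MRPS27, had log2 fold changes between -0.12 and 0.56, and none passed. The locus at MRPL38, on the strand opposite to the member, had 3.59, 3.76 and 4.05 CPM in atretic libraries, against 2.84, 1.88 and 3.03 CPM in healthy libraries. The groups did not overlap there, whereas MRPL38 itself overlapped. This locus had the highest log2 fold change of the 7 and was singled out after its values were seen. All atretic libraries lay above all healthy ones for 16.6% of tested loci without an annotated transcript.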
